A study of Mus musculus with 3 samples.

Results

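The genes described here are 6 genes of the acute-phase and whey acidic protein (WAP) domain families in mouse bone marrow: Saa3, Hp, Orm1, Wfdc17, Wfdc21 and Slpi. They were found by symbol among the 32285 genes of the count tables, and all 6 are present. Saa3 and Wfdc17 were selected on a large difference from Sham in these same libraries, so their differences from Sham are given as a description and support nothing further. The series holds 3 libraries of C57BL/6J bone marrow, 1 per group. Sham is the operated control, MI is myocardial infarction made by tying off the left anterior descending coronary artery, and MI-E carries the treatment label MI with EMPA, a name the labels do not spell out. Age, sex, time after surgery, EMPA dose and the number of animals per library are not given in the sources used here. Cells came from femur and tibia and passed a Ficoll density gradient, a step that selects cells by density and so also sets the share of granulocytes recovered. With 1 library per group there is no replicate and no test: every interval below is a 95% interval of counting error, and differences between libraries cannot be told apart from differences between animals or preparations. Comparisons of MI and of MI-E with Sham share the Sham library.

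Acute-phase proteins are plasma proteins that rise during inflammation, made mostly by the liver under IL-6 and IL-1 signals through STAT3, NF-kB and C/EBP factors. Saa3 is a serum amyloid A protein made in mice mainly outside the liver, including in macrophages. Hp (haptoglobin) binds free haemoglobin, and Orm1 is alpha-1-acid glycoprotein; neutrophils also store both in granules. WAP-domain proteins are small secreted proteins with a disulfide-rich core, many of them inhibitors of serine proteases or antimicrobial. Slpi, secretory leukocyte peptidase inhibitor, blocks neutrophil elastase and cathepsin G. Wfdc17 and Wfdc21 are rodent WAP-domain genes expressed in myeloid cells.

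In GENCODE M21 on build mm10 (GRCm38), Saa3 lies on the minus strand of chromosome 7 from 46711998 to 46715700, in the serum amyloid A cluster, with Saa4 12.3 kb and Saa1 24.8 kb away. Wfdc17 (chromosome 11, 83703991 to 83706268, plus strand) and Wfdc21 (chromosome 11, 83746940 to 83752642, plus strand) are neighbours separated by 40.7 kb, with Wfdc18 between them. Slpi is on the minus strand of chromosome 2 from 164354070 to 164389095, Hp on the minus strand of chromosome 8 from 109575128 to 109579172, and Orm1 on the plus strand of chromosome 4 from 63344560 to 63348163. All 6 are protein-coding genes, and Orm1 sits 8.0 kb from its close paralog Orm3 and 14.3 kb from Orm2. Over all cells of Sham, MI and MI-E, Orm2 had 0, 0 and 2 UMIs and Orm3 0, 2 and 1. Orm1 had 1772, 4055 and 3001, so few counts were given to the paralogs. How reads alike between them were handled was not tested.

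The stretches directly upstream of Saa3 and Wfdc17 are shown because these members had the large differences from Sham. They come from the RefSeq promoter table for GRCm38.p6, which holds 3 of the 6 members (Saa3, Wfdc17 and Slpi), and end before the first GENCODE exon: 226 bases for Saa3 at chr7:46715701-46715926, minus strand, and 185 bases for Wfdc17 at chr11:83703806-83703990, plus strand. Capitals mark matches on either strand to TTNNGNAA, a core that C/EBP factors bind.
Saa3: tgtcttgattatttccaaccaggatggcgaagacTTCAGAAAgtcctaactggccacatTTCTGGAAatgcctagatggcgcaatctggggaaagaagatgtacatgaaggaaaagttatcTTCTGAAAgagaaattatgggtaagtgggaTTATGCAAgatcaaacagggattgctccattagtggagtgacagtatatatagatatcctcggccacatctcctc
Wfdc17: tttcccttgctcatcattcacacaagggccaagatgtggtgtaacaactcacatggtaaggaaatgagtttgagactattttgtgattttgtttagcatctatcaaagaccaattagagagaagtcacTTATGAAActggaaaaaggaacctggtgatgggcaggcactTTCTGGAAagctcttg
In the 250 bases before the RefSeq start, Saa3 held 4 matches to this core, Wfdc17 2 and Slpi, which differed less from Sham, 3. At least 1 match occurs in 36.8% of 32526 promoter windows of the same length, so the core is common. The NF-kB core motif (in 4.65% of windows) and TTCNNNGAA, a core of STAT sites (in 7.04%), matched none of the 3 windows on either strand; the letters of TTCNNNGAA and TTNNGNAA can overlap. A match is a string of letters and was not tested for binding.

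Filtering left 21330, 20459 and 19662 cells in Sham, MI and MI-E, with median depths of 2136.5, 3113 and 2585.5 unique molecular identifiers (UMIs, each counted once per captured RNA molecule). Any pair of libraries shared 156 to 176 cell barcodes, at most 0.770% of either. Cells were clustered without the 6 genes, and clusters were called "X-like" from marker lists; the 10 classes that held 200 or more cells per library are compared. Neutrophil-like cells made up 11.9%, 32.7% and 26.2% of the cells of Sham, MI and MI-E, monocyte-like cells 16.9%, 22.3% and 19.5%, and B lineage-like cells 46.8%, 18.9% and 26.4%. Levels are CPM, the UMIs of a gene scaled to the same total of UMIs for each class and library (free RNA in a class can still follow what a library contains). Free RNA in droplets was read from B lineage-like cells, which should lack these genes. Their S100a8, a neutrophil gene, was 917 CPM in Sham, 2736 CPM in MI and 1599 CPM in MI-E. This order is that of the neutrophil-like shares. B lineage-like cells were shallow, with median depths of 1378, 1055 and 1070 UMIs against 2747, 3237 and 2924 in neutrophil-like cells. The CPM that free RNA gives can change with depth, so their level is only a rough guide for deeper cells.

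Saa3 was nearly unread in Sham bone marrow and was read mainly from monocyte-like cells after infarction, with and without EMPA. In monocyte-like cells its level was 3.55 CPM in Sham (60 UMIs), 322 CPM in MI (7775 UMIs) and 292 CPM in MI-E (6170 UMIs). This is 90.7-fold higher in MI than in Sham (interval 70.4 to 119) and 82.2-fold higher in MI-E (63.8 to 108). A single Sham cell, in a sub-cluster led by the interferon-response genes Cxcl10 and Ifit3, held 40 of the 60 Sham UMIs; without the top cell of each library the ratios were 269 and 245, and in cells thinned to 1000 UMIs 212 and 209. With 4000 variable genes, which drew the class differently, they were 56.4 and 48.2. Monocyte-like cells held 75.9% of all Saa3 UMIs in Sham and 93.5% in MI.

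A minority of monocyte-like cells carried Saa3 RNA. With every cell thinned to 1000 UMIs, 0.112% of Sham monocyte-like cells had a Saa3 UMI (4 of 3559; interval 0.0306% to 0.288%), against 21.03% in MI (945 of 4493; 19.8% to 22.3%) and 20.3% in MI-E (766 of 3774; 19.0% to 21.6%). B lineage-like cells thinned alike gave 0.0225%, 0.175% and 0.284% in the same order, in each library below the monocyte-like share. At full depth, where median depths were 3830.5 (Sham), 4285 (MI) and 4249 (MI-E) UMIs, a Saa3 UMI was found in 17 of the 3608 monocyte-like cells from Sham, in 1736 of the 4566 from MI and in 1333 of the 3832 from MI-E. Of MI cells thinned to 1000 UMIs, 4.38% had 3 or more Saa3 UMIs, and of MI-E cells 5.14%.

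**Figure D1:**
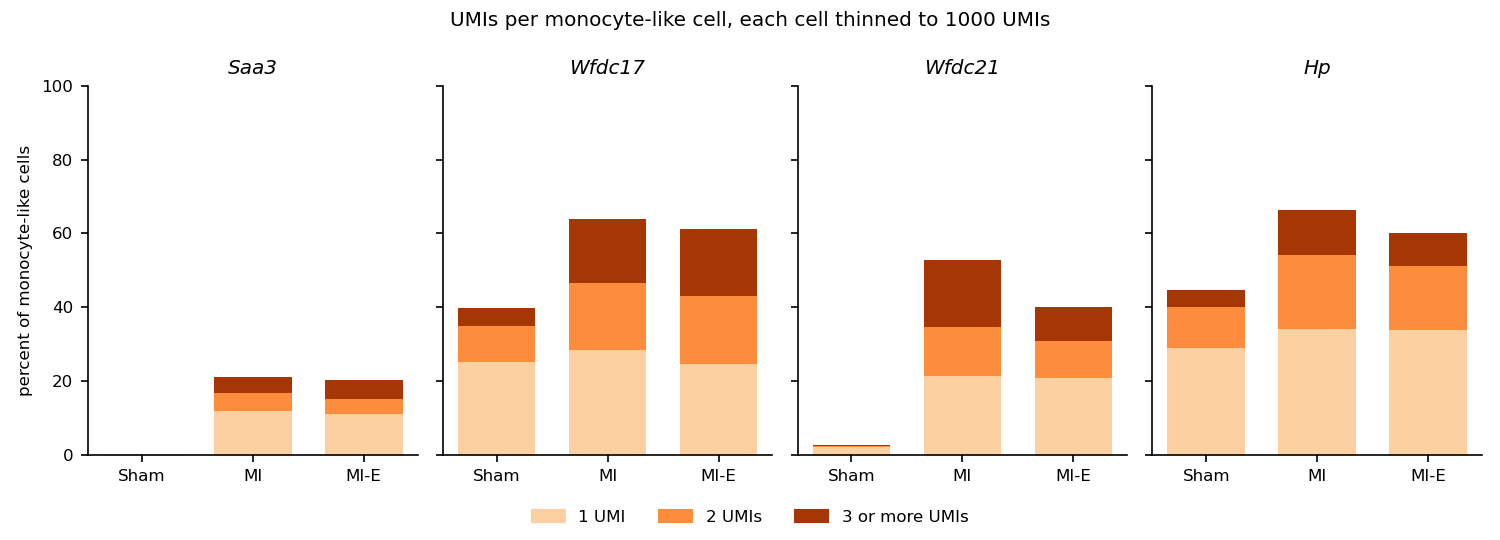
Stacked bars give the percent of monocyte-like cells (y axis, percent) in Sham, MI and MI-E with 1, 2, or 3 or more UMIs of Saa3, Wfdc17, Wfdc21 and Hp after thinning each cell to 1000 UMIs. Saa3 bars reach 0.112%, 21.03% and 20.3%, while Wfdc17 and Hp are already read in 39.8% and 44.7% of Sham cells.

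Among monocyte-like cells clustered again on their own, again without the 6 genes, Saa3 was uneven. Most MI and MI-E cells (2621 and 1992) fell in a classical-like sub-cluster led by Ms4a8a, Chil3 and Vcan, in which Saa3 was 628 CPM in MI and 677 CPM in MI-E. Only 5 Sham cells fell there; 2649 of the 3608 Sham cells were in an unnamed sub-cluster led by Ifi27l2a, with Saa3 at 1.69 CPM. The 28 MI-E cells placed in that same sub-cluster stood at 745 CPM, and the 7 MI cells there had no Saa3 UMI. A sub-cluster of MI and MI-E cells led by Lcn2 and Il1r2 had 142 and 129 CPM. One led by histone and granule protease genes (Elane, Prtn3) had 23.9 and 27.4 CPM. Non-classical-like cells (Ace, Treml4), present in all libraries, had 0 Sham UMIs and 5 and 4 UMIs in MI and MI-E. The monocyte-like comparison with Sham is therefore largely between different sub-clusters, and a change of cell mixture and a change within cells cannot be told apart there.

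Outside monocyte-like cells, conventional dendritic-like cells had the next highest Saa3 level of the compared classes: no UMI among 429 Sham cells, 42.2 CPM in MI (80 UMIs in 24 cells) and 36.2 CPM in MI-E (76 UMIs in 23 cells). Both lie above the 1.86 CPM that 0 counts in Sham allow at a limit of 3 counts. In this class the 12 monocyte markers summed to 54.3%, 63.4% and 61.6% of their monocyte-like level in Sham, MI and MI-E. The median marker was at 76.9%, 99.8% and 88.8%. The macrophage markers C1qa and C1qb were among its leading genes. The part of monocytes and macrophages in its Saa3 and Wfdc17 values was not tested. In neutrophil-like cells Sham had no Saa3 UMI, MI 5.29 CPM and MI-E 1.51 CPM, beside 0.105, 2.84 and 3.97 CPM in B lineage-like cells. The MI-E level is thus below the level taken as free RNA. The MI level is above it, with 85 of the 149 MI UMIs in mature-like cells (17.0 CPM). Monocyte markers in MI neutrophil-like cells summed to 6.41% of their monocyte-like level, with the median marker at 1.44%. The part of monocyte RNA in these Saa3 values was not tested.

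**Figure D2:**
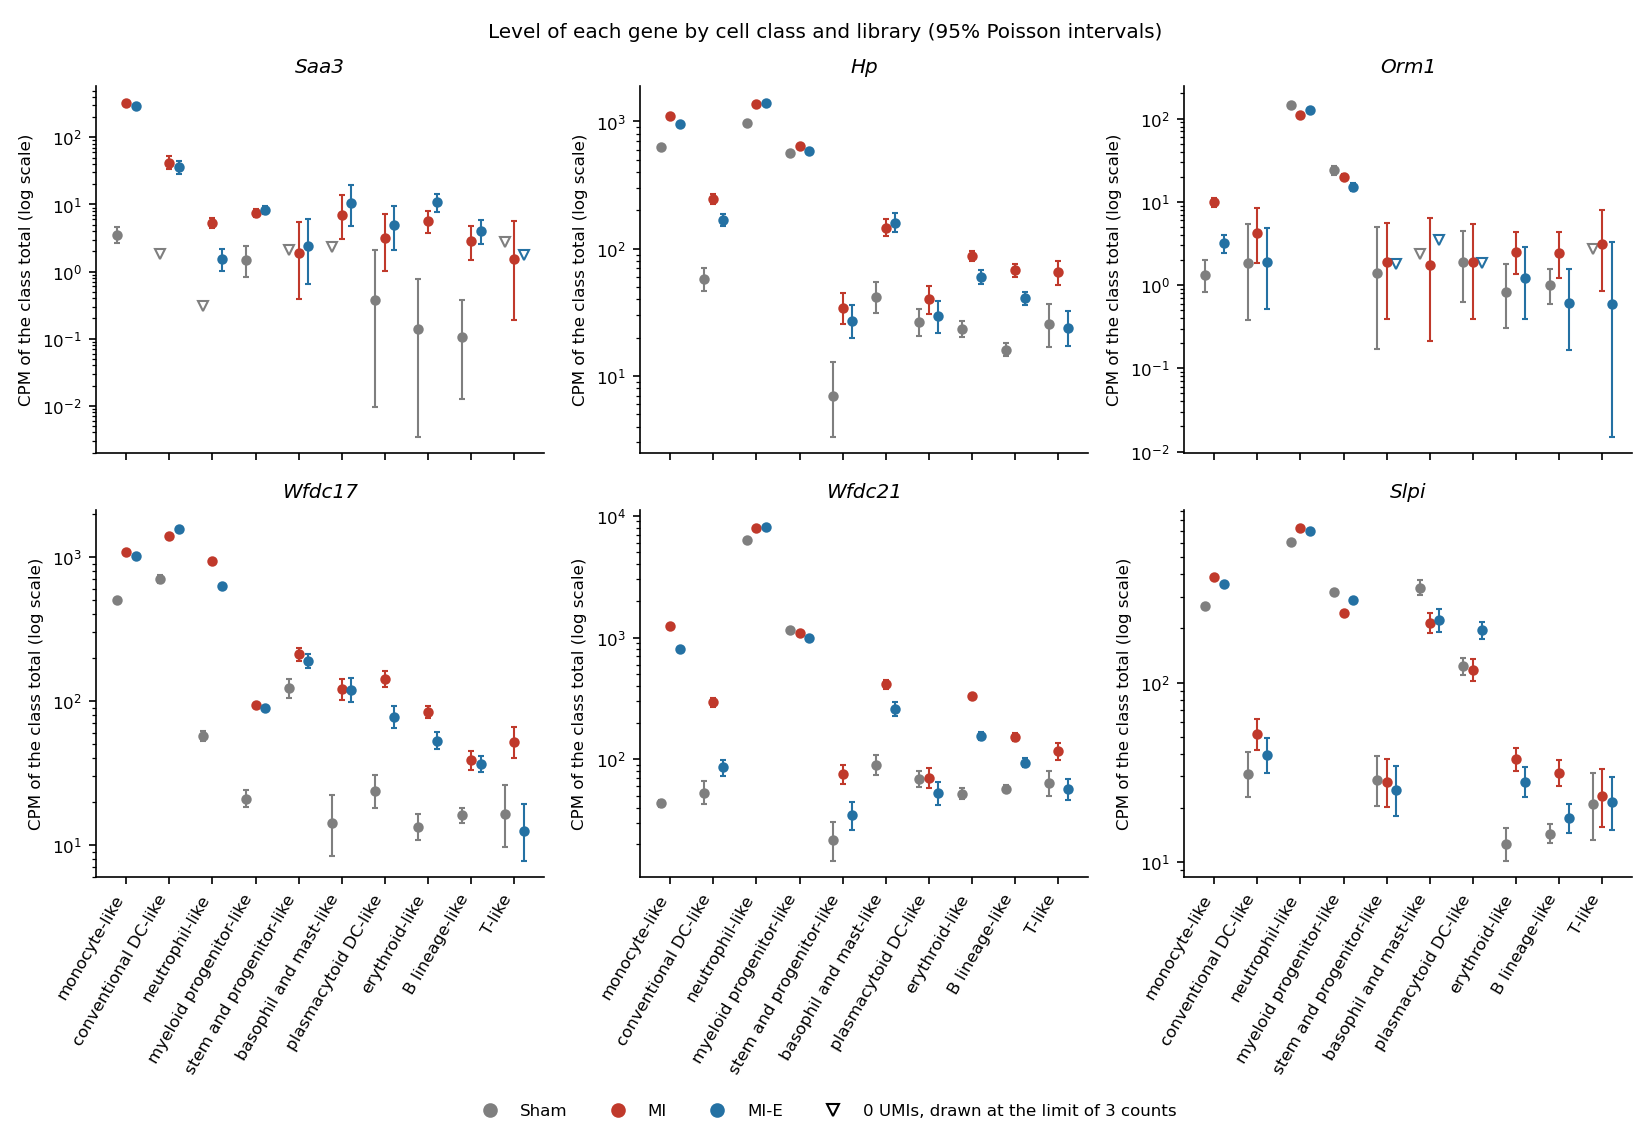
Each panel is 1 gene; points are CPM of the class total on a log scale (y axis) for 10 cell classes (x axis) in Sham, MI and MI-E, bars are 95% Poisson intervals, and open triangles are 0 UMIs drawn at the limit of 3 counts. In monocyte-like cells Saa3 stands at 322 CPM (MI) and 292 CPM (MI-E), Wfdc21 and Orm1 are highest in neutrophil-like cells in all 3 libraries, and Wfdc17 in neutrophil-like cells goes from 57.2 CPM in Sham to 935 CPM in MI.

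Hp was read in monocyte-like, neutrophil-like and myeloid progenitor-like cells of every library. In monocyte-like cells its level was 633 CPM in Sham, 1106 CPM in MI and 953 CPM in MI-E, a ratio to Sham of 1.75 (1.71 to 1.79) in MI and 1.51 (1.47 to 1.54) in MI-E. In neutrophil-like cells it was 975 CPM in Sham, 1380 CPM in MI and 1389 CPM in MI-E, 1.41 and 1.42 times Sham. Sham was the lowest library in both classes; MI and MI-E differed in monocyte-like cells (0.861, interval 0.846 to 0.877), and in neutrophil-like cells their ratio was 1.01 (0.991 to 1.02). Non-classical monocyte-like cells showed a wider gap in Hp, with 212 CPM in Sham, 927 CPM in MI and 668 CPM in MI-E. Within neutrophil-like cells Hp varied little with stage, from 890 to 1073 CPM in Sham and 1228 to 1531 CPM in MI.

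Orm1 was a gene of early neutrophil-like cells. Neutrophil-like cells held 81.5%, 77.2% and 83.6% of its UMIs in the Sham, MI and MI-E libraries. Its level there was 147 CPM in Sham, 111 CPM in MI and 127 CPM in MI-E, so MI was 0.755 times Sham (0.709 to 0.804) and MI-E 0.860 times (0.806 to 0.919). Dividing precursor-like cells had 226, 149 and 192 CPM in Sham, MI and MI-E, immature-like cells 209, 119 and 124 CPM, and mature-like cells 30.4, 23.8 and 22.0 CPM. The immature-like sub-cluster with most immature-like Sham cells held 593 Sham, 1523 MI and 987 MI-E cells. Orm1 in it was 233 CPM in Sham, 181 CPM in MI and 214 CPM in MI-E. Of its thinned cells, 16.4%, 14.2% and 17.7% had an Orm1 UMI in the same order. The other immature-like sub-cluster held 117 Sham, 1896 MI and 1468 MI-E cells. There 0.909% of thinned Sham cells (1 of 110), 5.17% of MI and 4.86% of MI-E had an Orm1 UMI. The immature-like Orm1 values of the stage thus pool sub-clusters that the libraries filled unequally. In monocyte-like cells Orm1 was 1.30 CPM in Sham (22 UMIs), 9.82 CPM in MI (237 UMIs) and 3.17 CPM in MI-E (67 UMIs), so Sham was the lowest library there and the highest in neutrophil-like cells. Beside these, B lineage-like cells had 0.995, 2.40 and 0.611 CPM. In monocyte-like cells the ratios to Sham of 7.54 (4.86 to 12.3) in MI and 2.43 (1.48 to 4.14) in MI-E rest on few UMIs; over 16 alternatives their log2 values ran from 2.40 to 4.69 and from 0.885 to 3.06, and 7 alternatives moved each by over 1.5 times.

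In Sham, Wfdc17 was highest in conventional dendritic-like and monocyte-like cells, and in MI and MI-E it was high in neutrophil-like cells as well. In neutrophil-like cells its level was 57.2 CPM in Sham (562 UMIs), 935 CPM in MI (26333 UMIs) and 634 CPM in MI-E (12554 UMIs). MI was 16.3 times Sham (15.0 to 17.8) and MI-E 11.1 times (10.2 to 12.1); MI-E was 0.677 times MI (0.663 to 0.692). Without doublet removal the ratios to Sham were 10.1 and 7.13. Thinned to 1000 UMIs, 4.28% of Sham neutrophil-like cells had a Wfdc17 UMI, 32.0% in MI and 24.2% in MI-E, against 1.88%, 3.36% and 3.10% of B lineage-like cells. Neutrophil-like cells held 5.06% of the Wfdc17 UMIs of Sham, 43.8% of those of MI and 30.7% of those of MI-E. The 12 monocyte markers summed in these cells to 6.96%, 6.41% and 7.31% of their monocyte-like level in Sham, MI and MI-E. None was at 0, and the median marker was at 1.84%, 1.44% and 1.53%, well below the sums. The part of monocyte RNA in the Wfdc17 values was not tested.

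The level of Wfdc17 followed neutrophil stage. In mature-like cells (1383 Sham, 2126 MI and 1783 MI-E cells) it was 144 CPM in Sham, 4575 CPM in MI and 2899 CPM in MI-E; in immature-like cells 7.94, 217 and 82.6 CPM; in dividing precursor-like cells 4.41, 30.4 and 19.0 CPM. B lineage-like cells had 16.1, 38.7 and 36.5 CPM. All 3 dividing precursor-like values and the Sham immature-like value are at this level or below it. The difference is therefore read from mature-like and immature-like cells of MI and MI-E. Dividing precursor-like cells were deeper than B lineage-like cells, with a median of 8008 UMIs. The comparison thus cannot show that the low values are free RNA. Mature-like cells of Sham (1346 cells) and of MI and MI-E (2111 and 1755 cells) mostly formed different sub-clusters. These were led by Ifi27l2a and Ptgs2 in Sham and by Ifitm1 and Igfbp6 in MI and MI-E. The Ifitm1-led sub-cluster held 37 Sham cells. Of its thinned cells, 14.8% of Sham (4 of 27), 82.2% of MI and 62.1% of MI-E had a Wfdc17 UMI. In the immature-like sub-cluster with most immature-like Sham cells, Wfdc17 was 8.12 CPM in Sham (19 UMIs), 37.1 CPM in MI (221 UMIs) and 18.0 CPM in MI-E (64 UMIs). Each is below the level of the shallower B lineage-like cells of its library, so no difference is read there. The other immature-like sub-cluster held 117 Sham, 1896 MI and 1468 MI-E cells. Of its thinned cells, 1.82% of Sham (2 of 110), 20.9% of MI and 10.8% of MI-E had a Wfdc17 UMI. The immature-like stage values thus pool sub-clusters that the libraries filled unequally. MI-E was below MI in mature-like (0.634, interval 0.619 to 0.648) and immature-like cells (0.381, 0.350 to 0.415).

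**Figure D3:**
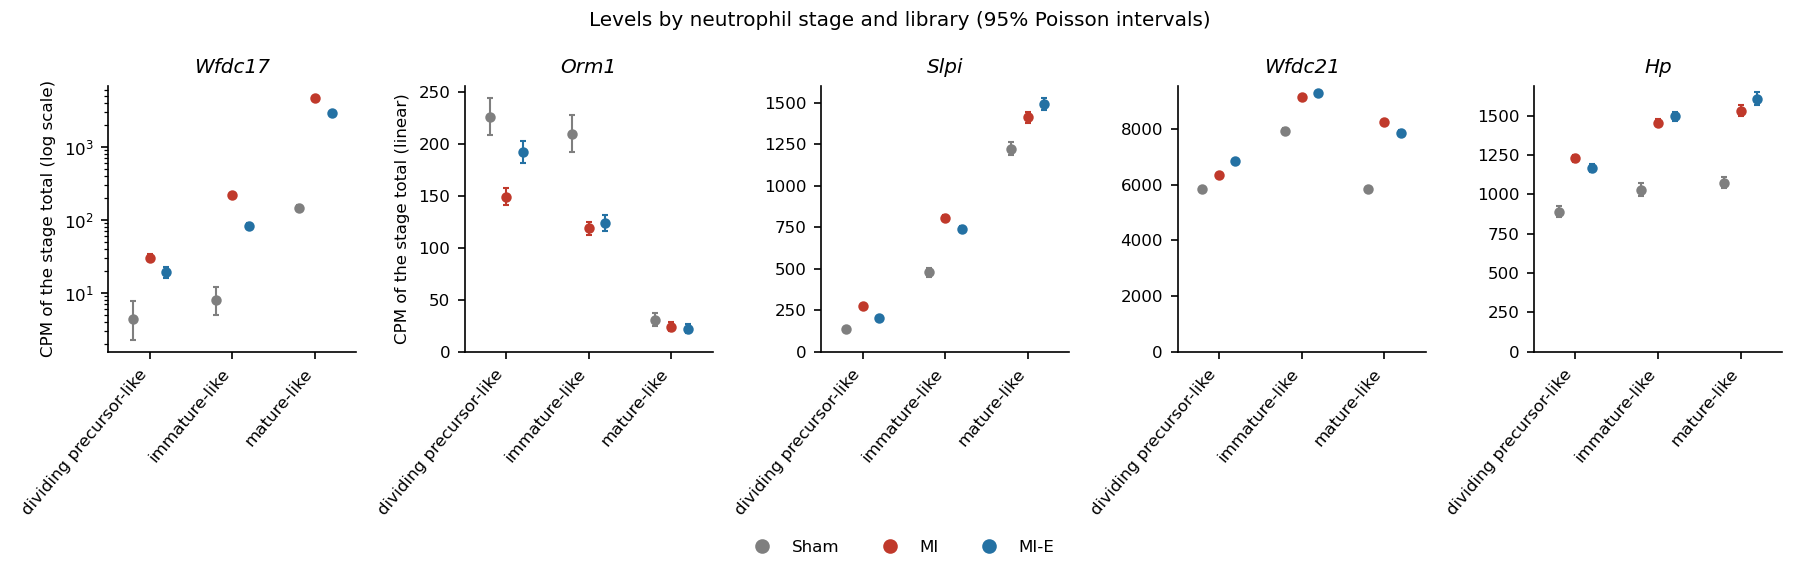
Points are CPM of the stage total (y axis; log scale for Wfdc17, linear from 0 for Orm1, Slpi, Wfdc21 and Hp) in dividing precursor-like, immature-like and mature-like neutrophil cells of Sham, MI and MI-E, with 95% Poisson intervals. Wfdc17 and Slpi are highest in mature-like cells and Orm1 is lowest there, and Wfdc17 reaches 4575 CPM in MI against 144 CPM in Sham.

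In monocyte-like cells Wfdc17 was 501 CPM in Sham, 1086 CPM in MI and 1024 CPM in MI-E, so MI was 2.17 times Sham (2.11 to 2.22) and MI-E 2.04 times (1.99 to 2.09). Conventional dendritic-like cells had 704, 1398 and 1566 CPM, 1.99 times Sham in MI and 2.22 times in MI-E. Non-classical monocyte-like cells had 90.4, 439 and 656 CPM. MI exceeded Sham with an interval above 1 in all 10 classes, among them erythroid-like cells (13.4, 83.9 and 53.1 CPM), T-like cells (16.4, 51.9 and 12.6 CPM) and B lineage-like cells (16.1, 38.7 and 36.5 CPM), where its levels were low. Plasmacytoid dendritic-like cells had 23.7 CPM in Sham, 143 CPM in MI and 77.8 CPM in MI-E.

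Wfdc21 was foremost a gene of neutrophil-like cells, and in MI and MI-E it was read in monocyte-like cells too. In neutrophil-like cells it was 6316 CPM in Sham, 7942 CPM in MI and 8051 CPM in MI-E, 1.26 and 1.27 times Sham, and after thinning 97.3%, 99.5% and 99.5% of these cells had a UMI. In monocyte-like cells it was 43.5 CPM in Sham (734 UMIs), 1240 CPM in MI (29931 UMIs) and 798 CPM in MI-E (16854 UMIs). The Sham value is below the 57.5 CPM of the shallower Sham B lineage-like cells, and its free RNA part was not tested. The ratios of 28.5 (26.5 to 30.8) in MI and 18.4 (17.0 to 19.8) in MI-E start from this low level. With each library clustered apart they were 43.5 and 29.5, and without the sub-clusters led by genes of other classes, an alternative chosen after seeing the data, 59.9 and 38.7. B lineage-like cells had 153 CPM in MI and 94.1 CPM in MI-E. MI-E monocyte-like cells had 0.643 times the MI level (0.631 to 0.655), and MI-E was below MI in 9 of the 10 classes, B lineage-like cells included; neutrophil-like cells, at 1.01 times MI, were the exception, and there the sign turned under 6 of 16 alternatives, TMM scaling among them.

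Because Wfdc21 and Orm1 belong to neutrophils, the neutrophil marker list was read in the same monocyte-like cells. The 13 markers summed to 4861 CPM in Sham, 34167 CPM in MI and 20950 CPM in MI-E. These are 1.13%, 8.06% and 5.19% of the neutrophil-like sums, and the median marker was at 0.905%, 4.66% and 2.46%. Chil3, which is also on the classical monocyte marker list, gave 1345, 7248 and 6522 CPM of these sums. None of the 13 was at 0, 10 of 13 were higher in MI than in Sham and 6 at least 2-fold. The markers did not move as 1 block. In MI monocyte-like cells S100a8 was at 9.27% of its neutrophil-like level, Lcn2 at 14.6%, Mmp8 at 52.0% and Chil3 at 116%. S100a9 was at 5.14%, Cxcr2 at 4.66% and Csf3r at 31.0%. In Sham monocyte-like cells Mmp8, Chil3 and Csf3r already stood at 9.28%, 27.7% and 31.1%. Returning to MI, further markers stood lower. The granule genes Ngp, Camp and Ltf were at 0.962%, 1.09% and 1.29%, below their 1.47%, 1.69% and 2.72% in B lineage-like cells, and Retnlg, Mmp9 and Ly6g at 0.652%, 1.26% and 1.13% were below theirs as well. Wfdc21 stood at 15.6% of its neutrophil-like level in MI monocyte-like cells against 1.92% in B lineage-like cells, and at 9.91% against 1.17% in MI-E. Orm1 stood at 8.84% against 2.16% in MI and at 2.5% against 0.483% in MI-E. The part that RNA of neutrophils has in the monocyte-like values of Wfdc21 and Orm1 was not tested.

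**Figure D4:**
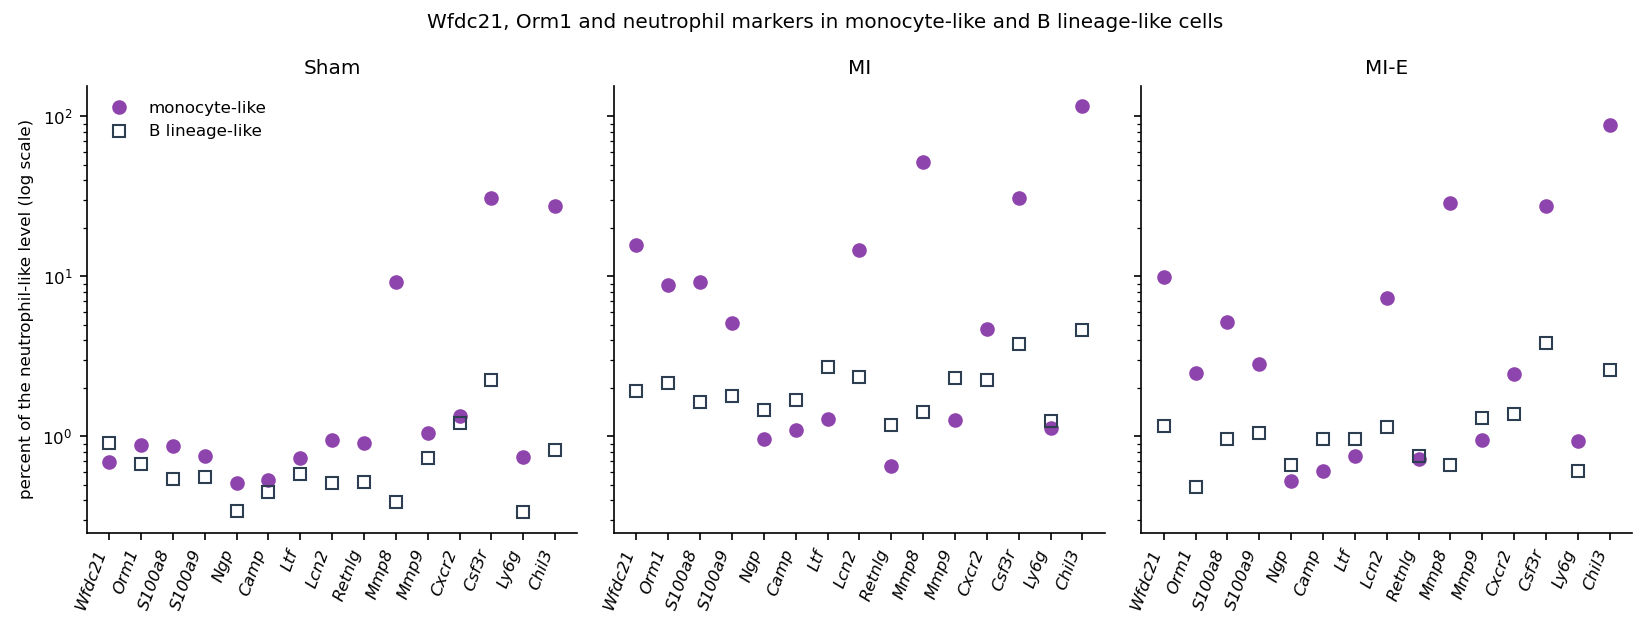
For Sham, MI and MI-E, points give the level of Wfdc21, Orm1 and 13 neutrophil markers (x axis) in monocyte-like cells (filled circles) and B lineage-like cells (open squares) as percent of the neutrophil-like level of the same library (y axis, log scale). In MI, Wfdc21 is at 15.6% and Lcn2 at 14.6% in monocyte-like cells, while Ngp, Camp and Ltf lie below the B lineage-like squares.

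Among neutrophil-like cells, Slpi spanned a wider range over stages than between libraries. Neutrophil-like cells had 608 CPM in Sham, 725 CPM in MI and 700 CPM in MI-E, and monocyte-like cells 267, 385 and 353 CPM, all within 1.44 times of Sham. Dividing precursor-like neutrophil cells had 135, 278 and 206 CPM, immature-like cells 478, 807 and 741 CPM, and mature-like cells 1224, 1413 and 1491 CPM. Basophil and mast-like cells had 337 CPM in Sham, 215 CPM in MI and 222 CPM in MI-E, so MI was 0.639 times Sham (0.544 to 0.749). Myeloid progenitor-like cells also were lower in MI, at 317, 245 and 290 CPM. In plasmacytoid dendritic-like cells Sham and MI were at 123 and 118 CPM, and MI-E at 195 CPM was 1.66 times MI (1.38 to 2.00).

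**Figure D5:**
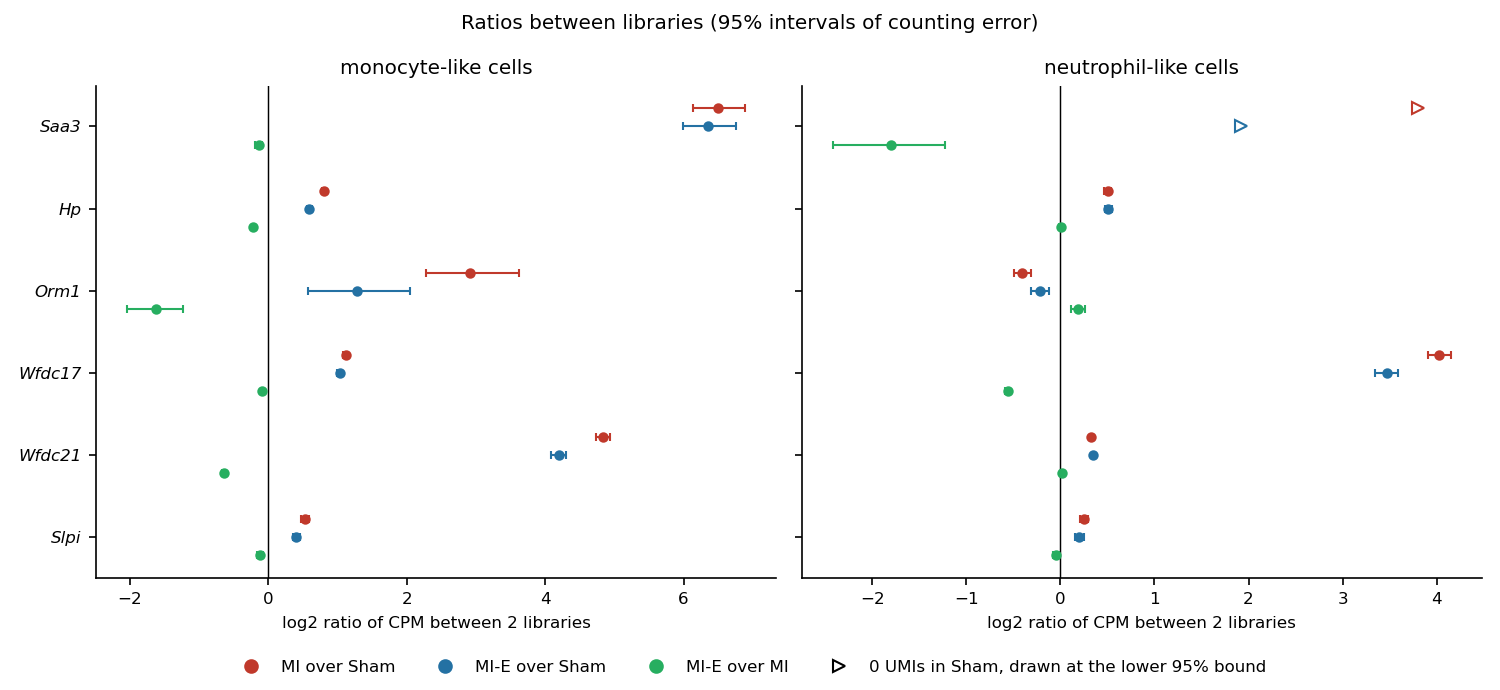
Points are log2 ratios of CPM between 2 libraries (x axis) for each of the 6 genes (y axis) in monocyte-like (left) and neutrophil-like cells (right), bars are 95% intervals of counting error, and open triangles are lower bounds where Sham had 0 UMIs. Saa3 and Wfdc21 lie farthest right in monocyte-like cells (log2 6.50 and 4.83 for MI over Sham), Wfdc17 in neutrophil-like cells (4.03), and Orm1 falls on opposite sides of 0 in the 2 classes.

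Set against all genes, at least 2-fold higher levels were uncommon. Among genes averaging 10 CPM or more in the pair of libraries, 2.22% were at least 2-fold higher in MI than Sham in monocyte-like cells (170 of 7651), and 3 of the 5 members past that minimum were (Saa3, Wfdc17 and Wfdc21; Orm1 was under it). In MI-E over Sham 1.71% were, with the same 3 members. For Wfdc17 this call is narrow: its ratio to Sham in monocyte-like cells fell under 2-fold in 3 of 16 alternatives in MI and in 8 of 16 in MI-E, with the lowest values, 1.69 and 1.51, at 4000 variable genes. In neutrophil-like cells the shares were 1.23% for MI and 1.11% for MI-E, with 1 of 5 members (Wfdc17; Saa3 was under the minimum). Since Saa3 and Wfdc17 were selected on this contrast, nothing is read from these counts, and the medians below are a description of the members that passed the minimum. Between MI-E and MI no member past the minimum differed 2-fold in either class, where 0.417% of genes were at least 2-fold higher and 0.248% lower in monocyte-like cells, and 0.18% and 0.115% in neutrophil-like cells. The median log2 ratio of MI over Sham was 1.12 over the 5 members and -0.02 over all genes in monocyte-like cells, and 0.33 and 0.01 in neutrophil-like cells.

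For Saa3 in monocyte-like cells, MI-E was 0.906 times MI (0.876 to 0.937), and this order turned at the coarser Leiden clustering resolution of 0.5, where it was 1.08 times. Within the classical-like sub-cluster MI-E was 1.08 times MI (1.04 to 1.12), and in the Lcn2-led one 0.910 times (0.811 to 1.02). Wfdc17 in monocyte-like cells, at 0.943 times MI, was 1.12 times MI within the classical-like sub-cluster. Wfdc21 in contrast was below MI in the classical-like (0.610), Lcn2-led (0.713) and Elane-led (0.720) sub-clusters.

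Cells with Saa3 were mostly those of the classical-like sub-cluster, in which Wfdc17 was also widely read. Of MI monocyte-like cells thinned to 1000 UMIs, 76.4% of those with a Saa3 UMI also had a Wfdc17 UMI (722 of 945; 73.6% to 79.1%), against 60.7% of those without (59.1% to 62.4%); in MI-E the shares were 77.3% and 57.2%. Of the cells with a Saa3 UMI, 782 of 945 in MI and 644 of 766 in MI-E were in the classical-like sub-cluster, where 76.8% and 80.3% of all cells had a Wfdc17 UMI. The shares among Saa3 cells include cells of other sub-clusters. Wfdc17 with and without Saa3 was not compared within a sub-cluster, so the part of sub-cluster in this overlap was not tested. The neutrophil-type gene S100a9 went the other way, at 67.9% with and 77.0% without Saa3 in MI and 52.7% and 61.7% in MI-E. For the shares of S100a8 and Wfdc21 the intervals overlapped in both libraries. S100a8 was at 90.3% with and 91.4% without Saa3 in MI and at 80.8% and 82.6% in MI-E. Most cells had an S100a8 UMI, so its share can show little. Its mean UMIs per thinned cell were lower with Saa3, at 11.1 against 13.8 in MI and 5.22 against 7.93 in MI-E. Wfdc21 was at 56.1% with and 52.1% without Saa3 in MI and at 42.4% and 39.5% in MI-E. For Hp (68.1% and 65.9%) and Slpi (30.4% and 27.7%) the MI shares lay close together, with overlapping intervals. Cells of 1 library are not replicates, so the shares describe these libraries.

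Most other acute-phase genes were low in monocyte-like and neutrophil-like cells. Of 22 listed (Saa1, Crp, Fga and others), 3 averaged 10 CPM or more in monocyte-like and in neutrophil-like cells: Lcn2, Lbp and C3. Serpina3g, of the serine protease inhibitor family, was read elsewhere, at up to 160 CPM in stem and progenitor-like cells of MI. The liver genes Crp, Apcs, Fga, Fgb, Fgg and also Saa2 had 0 UMIs in all cells kept, and Saa1 had 0, 6 and 1 UMIs in Sham, MI and MI-E. Lcn2 (lipocalin 2, which binds bacterial siderophores) was 110 CPM in Sham, 2331 CPM in MI and 1019 CPM in MI-E monocyte-like cells. C3, the central complement component, was lower in MI, at 453, 254 and 311 CPM in monocyte-like and 497, 294 and 414 CPM in neutrophil-like cells. Lbp (lipopolysaccharide-binding protein) was 12.7, 23.2 and 29.5 CPM in monocyte-like cells. In monocyte-like cells 1 of the 3 was at least 2-fold higher in MI (Lcn2) and 2 in MI-E (Lcn2 and Lbp), and in neutrophil-like cells none was, beside the 2.22% (MI) and 1.71% (MI-E) of all genes in monocyte-like cells.

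Of 21 other WAP-domain genes, none reached a mean of 10 CPM in either class. Wfdc18, which lies 2.7 kb from Wfdc17, was highest in conventional dendritic-like cells of MI-E at 11.9 CPM, with 106, 335 and 255 UMIs over all cells of Sham, MI and MI-E.

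Of the listed receptors and binders of the member proteins, 8 of 10 were measured in monocyte-like cells, of which 3 were at least 2-fold higher in MI than Sham and none 2-fold lower, where 2.22% of all genes were higher and 3.23% lower. Fpr2, a formyl peptide receptor that also binds serum amyloid A, was 27.8 CPM in Sham, 166 CPM in MI and 129 CPM in MI-E, and Fpr1 was 2.31, 30.4 and 24.1 CPM. Both were higher still in neutrophil-like cells, where Fpr2 was 402, 693 and 767 CPM. Tlr2, an innate receptor for bacterial lipopeptides, was 68.2, 83.2 and 72.9 CPM in monocyte-like cells. Of 5 measured proteases in monocyte-like cells, 2 were at least 2-fold higher in MI, against the same 2.22%: Prtn3 (238, 642 and 640 CPM) and Mmp8 (145, 731 and 513 CPM). Elane, neutrophil elastase and a Slpi target, was 135, 211 and 245 CPM.

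Among 15 measured regulators of the acute phase, 2 were at least 2-fold higher in MI in monocyte-like cells and none lower (2.22% and 3.23% of all genes), and 3 were higher and 1 lower in neutrophil-like cells (1.23% and 1.66% of all genes). These lists are short and nothing particular to them is read from the counts. Il1r2, the decoy receptor for IL-1, was 2.07 CPM in Sham, 196 CPM in MI and 58.8 CPM in MI-E monocyte-like cells and 51.0, 225 and 172 CPM in neutrophil-like cells. Il1b itself was 153, 74.3 and 103 CPM in neutrophil-like cells. Stat3 was 105, 153 and 152 CPM in monocyte-like cells, Cebpb 733, 772 and 736 CPM, Cebpd 168, 158 and 142 CPM, Cebpa 51.0, 56.4 and 57.8 CPM, and Cebpe 12.8, 17.4 and 13.2 CPM.

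Over the 30 class-by-library levels, log2(CPM + 1) of Saa3 was most like that of Vcan (Pearson r = 0.885), Ms4a8a (0.843) and Dpep2 (0.812). Hp was most like Chil3 (0.973), Wfdc21 like S100a8 (0.989), Orm1 like Olfml2b (0.948), Slpi like Rab3d (0.928) and Wfdc17 like Ctnnbip1 (0.875), among 6096 genes. The points share libraries and classes, so r is a description and carries no p.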

How the data were processed

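Bone marrow cells of 3 libraries (Sham, MI, MI-E) were profiled with 10x Single Cell 3' v3.1 chemistry, per the labels' protocols. The authors deposited 1 matrix of UMI counts (genes by barcodes) per library, made with Cell Ranger 5.0.1 on mm10, per the submitters' processing notes; no annotation release is named there. No barcode had fewer than 500 UMIs.

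The cell filter asked for 300 genes, 500 UMIs and no more than 10% of UMIs from mitochondrial genes, and passed 25053, 23455 and 22506 barcodes. Scrublet in scanpy 1.11.5 removed 3723, 2996 and 2844 doublets (14.9%, 12.8% and 12.6%). The libraries were clustered together without the 6 genes and without correction between libraries: 2000 variable genes, 40 principal components, 20 neighbours, Leiden resolution 1 (leidenalg 0.10.2). Clusters were named from marker lists; NK-like, macrophage-like, plasma cell-like and stromal and endothelial-like cells, under 200 in a library, and 1 unnamed cluster were not compared. Monocyte-like cells were mostly in 1 cluster in MI and MI-E (3738 and 2800 cells) and in another in Sham (2733 cells). The sub-cluster resolution of 0.5 was chosen after seeing the clusters.

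UMIs were summed per class and library and divided by the class total. Intervals are exact Poisson (levels), conditional binomial (ratios) and Clopper-Pearson (shares), at 95% and for counting error only; 0 counts are read as up to 3. Counting precision follows UMIs, with library totals of 99657072, 127330601 and 109451500 over all barcodes. The fold count was tested on simulated data. The members and gene lists were chosen with earlier results of these data known. Named genes are the members, the genes most like them, and list genes with at least 50 CPM in monocyte-like or neutrophil-like cells; others named were chosen after their values were seen. Alternatives covered filters, doublets, clustering, depth, scaling, weighting, single cells and free RNA.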

Additional observations from a re-analysis of the deposited data

Results flagged for a closer look

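Orm1 moved in opposite directions in monocyte-like and neutrophil-like cells in each comparison, a difference that was not tested because each group is 1 library. Its log2 ratio of MI over Sham was 2.91 in monocyte-like and -0.41 in neutrophil-like cells, and of MI-E over Sham 1.28 and -0.22. For MI-E over MI it was -1.63 and 0.19. The monocyte-like Orm1 values rest on 22 (Sham), 237 (MI) and 67 (MI-E) UMIs. Over 16 alternatives the neutrophil-like Orm1 ratios kept their sign, but some became very small. Their log2 values ran from -0.49 to -0.10 for MI over Sham and from -0.30 to -0.00032 for MI-E over Sham. For MI-E over MI they ran from 0.025 to 0.24. For Wfdc21 the log2 ratio of MI-E over MI was -0.64 in monocyte-like and 0.020 in neutrophil-like cells. The neutrophil-like value ran from -0.088 to 0.044 and turned sign under 6 of 16 alternatives, so no direction is read from it.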

How the results depend on the processing

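Over 16 alternatives, 1 of them (leaving out sub-clusters led by genes of other classes) added after seeing the data, Saa3 had log2 ratios over Sham in monocyte-like cells from 5.82 to 8.07 in MI and from 5.59 to 7.93 in MI-E, and Wfdc17 in neutrophil-like cells from 3.33 to 4.45 and from 2.83 to 3.86. For Saa3 the values outside the counting interval were, in MI and MI-E, 5.82 and 5.59 with 4000 variable genes, 7.73 and 7.71 thinned to 1000 UMIs, 6.90 and 6.85 as a mean of per-cell CPM, and 8.07 and 7.93 without the top cell of each library. For Wfdc17 they were 3.33 and 2.83 without doublet removal, 4.16 and 3.6 at Leiden resolution 0.5, 4.41 and 3.75 thinned, 3.76 and 3.27 as a mean of per-cell CPM, 4.45 and 3.86 with the B lineage-like level subtracted, and 4.21 in MI with the stricter cell filter. For MI-E over MI, Saa3 in monocyte-like cells (-0.14) was -0.21 without doublet removal, -0.22 with 4000 variable genes, -0.020 thinned, -0.24 with median-of-ratios factors, -0.23 with TMM factors, -0.045 as a mean of per-cell CPM and 0.11 at Leiden resolution 0.5. Wfdc17 in neutrophil-like cells (-0.56) was -0.85 with the stricter filter, -0.50 without doublet removal, -0.64 with libraries clustered apart, -0.67 thinned, -0.65 with median-of-ratios and -0.67 with TMM factors, -0.61 without the genes above 1% of a class total and -0.49 as a mean of per-cell CPM. TMM scaling shifts all MI-E over MI ratios in neutrophil-like cells by -0.11.

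Small MI-E over MI differences turned sign. Wfdc17 in monocyte-like cells was 0.13 at Leiden resolution 0.5, 0.026 thinned and 0.038 as a mean of per-cell CPM, and Slpi there was 0.0094 with 4000 variable genes. Slpi in neutrophil-like cells was 0.050 thinned and 0.063 as a mean of per-cell CPM. Wfdc21 in neutrophil-like cells was -0.0032 at Leiden resolution 0.5, -0.024 thinned, -0.073 with median-of-ratios and -0.088 with TMM factors, -0.033 without the genes above 1% of a class total and -0.046 as a mean of per-cell CPM. Slpi of MI over Sham in neutrophil-like cells was -0.061 as a mean of per-cell CPM. The cause was not tested.

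Counts of genes at least 2-fold apart followed the minimum level, which changes how many genes are tested. With a mean of at least 50 CPM, and with at least 1 UMI in each library, they were 57 and 751 (MI over Sham, monocyte-like), 41 and 670 (MI-E over Sham), 8 and 509 (MI-E over MI, higher) and 7 and 341 (lower). In neutrophil-like cells they were 28 and 419, 26 and 371, 3 and 446, and 2 and 258. Genes at least 2-fold lower in MI than Sham numbered 79 and 1184 in monocyte-like cells and 27 and 2194 in neutrophil-like cells, in place of 247 and 101. With TMM factors 19 genes in place of 32 were higher in MI-E than MI in monocyte-like cells. No paired analysis was possible because each group is 1 library.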

Other observations

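Slpi was also read in the few plasma cell-like cells (20 Sham, 25 MI and 28 MI-E), too few to compare. Their summed levels of 918, 14236 and 2952 CPM rest on single cells: 1 MI cell held 2062 of 3175 UMIs and 1 MI-E cell 346 of 718. The median cell had 461 CPM in Sham, 179 CPM in MI and 313 CPM in MI-E.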
